A study of Mus musculus with 26 samples.

Results

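Resident macrophages of the mouse RPE/choroid, the pigment epithelium and the vascular layer behind the retina, were described through 10 of the 16426 genes in the single cell count tables: the CSF1R ligand genes *Csf1* and *Il34*, the receptor gene *Csf1r*, and the resident macrophage genes *Mrc1*, *Cd163*, *Pf4*, *Gpr34*, *Cd72*, *Folr2* and *Lyve1*. These genes were chosen after their values in the same tables had been seen, so their levels are given as descriptions. The single cell data came from 2 libraries of 3-month-old mice, 1 of strain B6129PF1/J and 1 of strain C57BL/6J, each made from the pooled tissue of a male and a female. Whole RPE/choroid RNAseq compared 6-month-old *Ihh*+/+ mice with *Ihh* iΔEC/iΔEC mice, in which Cdh5-PAC-CreERT2, a tamoxifen-inducible recombinase driven by an endothelial promoter, had removed *Ihh* (Indian hedgehog) 12 weeks earlier, with 3 libraries per genotype. The *Ihh*+/+ controls had received the same tamoxifen and carried the same Cre. In culture, GLI1+ stromal cells, which were sorted from the RPE/choroid of *Gli1*-GFP reporter mice and expanded over several passages, were treated with 100 nM of SAG, an agonist of the hedgehog transducer Smoothened, or with its vehicle DMSO for 24 h, with 3 libraries per treatment.

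CSF1R is a receptor tyrosine kinase on monocytes and macrophages, and its signal keeps most tissue macrophages alive. It has a pair of ligands, CSF1 and IL-34, which bind the same receptor but are made by different cells: CSF1 is widespread, whereas IL-34 is best known from the epidermis and from neurons, where it maintains Langerhans cells and microglia. Macrophages that live along vessels and in connective tissue typically carry scavenger and endocytic receptors such as MRC1 (CD206), CD163, FOLR2 and LYVE1.

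The deposited annotation divided the cells into 13 clusters, numbered 1 to 13: RPE (1), endothelial cells (2 to 4), stromal cells (5 to 8), smooth muscle cells (9), melanocytes (10), hematopoietic cells (11) and Schwann cells (12 and 13). The defining markers fell where the names put them, with *Rpe65* highest in cluster 1, *Acta2* in cluster 9, *Mlana* in cluster 10 and *Ptprc* (CD45) in cluster 11 in both libraries. The B6129PF1/J library held 3637 cells with a median of 3881 UMIs, or counted molecules, and the C57BL/6J library held 3928 cells with a median of 3175 UMIs. Cluster 11 contributed 106 and 127 cells, respectively. Both tables hold somewhat fewer cells than the study describes. Of the barcodes, 22 occurred in both libraries. Levels are UMIs per 10,000 UMIs of a cluster, a 3' tag count that does not scale with transcript length, and brackets give exact Poisson 95% intervals. With 1 library per strain no test between strains was possible, levels of cell types were not tested because the genes were chosen by them, and all intervals cover counting error only.

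Stromal cells held most of the counted *Csf1* transcripts. *Csf1* encodes macrophage colony-stimulating factor, and its gene lies at chr3:107741048-107760469 (GRCm38, minus strand). In the B6129PF1/J library its level was 0.436 [0.307 to 0.601] in stromal cluster 7, 0.425 [0.356 to 0.503] in stromal cluster 5 and 0.411 [0.269 to 0.603] in stromal cluster 8. In the C57BL/6J library the order was cluster 7 at 0.494 [0.331 to 0.709], endothelial cluster 4 at 0.453 [0.254 to 0.748] and stromal cluster 5 at 0.451 [0.376 to 0.538]. The intervals of these leading clusters overlapped, so their order was not resolved at this depth. Stromal cells held 68.7% of the 358 *Csf1* UMIs in one library and 59.4% of the 347 in the other, endothelial cells held 19.8% and 28.5%, and smooth muscle cells held 9.22% and 8.93%. Stromal cells were 47.7% and 44.8% of all cells. Among endothelial cells the level was lowest in cluster 2, at 0.0420 and 0.0712, against 0.220 and 0.264 in cluster 3. The RPE had 3 and 1 *Csf1* UMIs in all, and hematopoietic cells 2 and 3.

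*Il34* was concentrated in a single stromal cluster. Its gene lies at chr8:110741829-110805924 (GRCm38, minus strand). Stromal cluster 6, the cluster with the highest level of the mural cell gene *Pdgfrb* in both libraries, had 2.92 [2.69 to 3.16] *Il34* UMIs per 10,000 in B6129PF1/J and 3.05 [2.81 to 3.31] in C57BL/6J. *Il34* was detected in 328 of the 541 cells of that cluster (60.6%) in the first library and in 339 of 603 (56.2%) in the second. Smooth muscle cells had 0.896 [0.762 to 1.05] and 0.926 [0.791 to 1.08], with the transcript in 35.4% and 28.3% of cells. The intervals of cluster 6 and of smooth muscle cells did not overlap in either library. Schwann cluster 13 had 1.30 [0.712 to 2.19] and 0.501 [0.184 to 1.09], resting on 12 of 30 and 4 of 46 cells, and these intervals overlapped those of smooth muscle cells. The neighbouring Schwann cluster 12 had 0.588 and 0.770. No *Il34* UMI was counted in the 106 hematopoietic cells of B6129PF1/J, and 7 UMIs in 3 cells were counted in the 127 of C57BL/6J. Cluster 6 alone held 66.4% of all *Il34* UMIs in each library.

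Few cells had transcripts of both ligands. Of 323 cells with *Csf1* and 574 with *Il34* in B6129PF1/J, 47 had both, and of 307 and 564 cells in C57BL/6J, 44 had both. *Il34* was detected in 14.6% of *Csf1*+ cells against 15.8% of all cells in the first library, and in 14.3% against 14.4% in the second. Most of the double-positive cells, 28 and 22, were in cluster 6, where 60.9% and 52.4% of *Csf1*+ cells had *Il34*, close to the share in that whole cluster. Cells of one library share their source, so these shares carry no test.

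**Figure D1:**
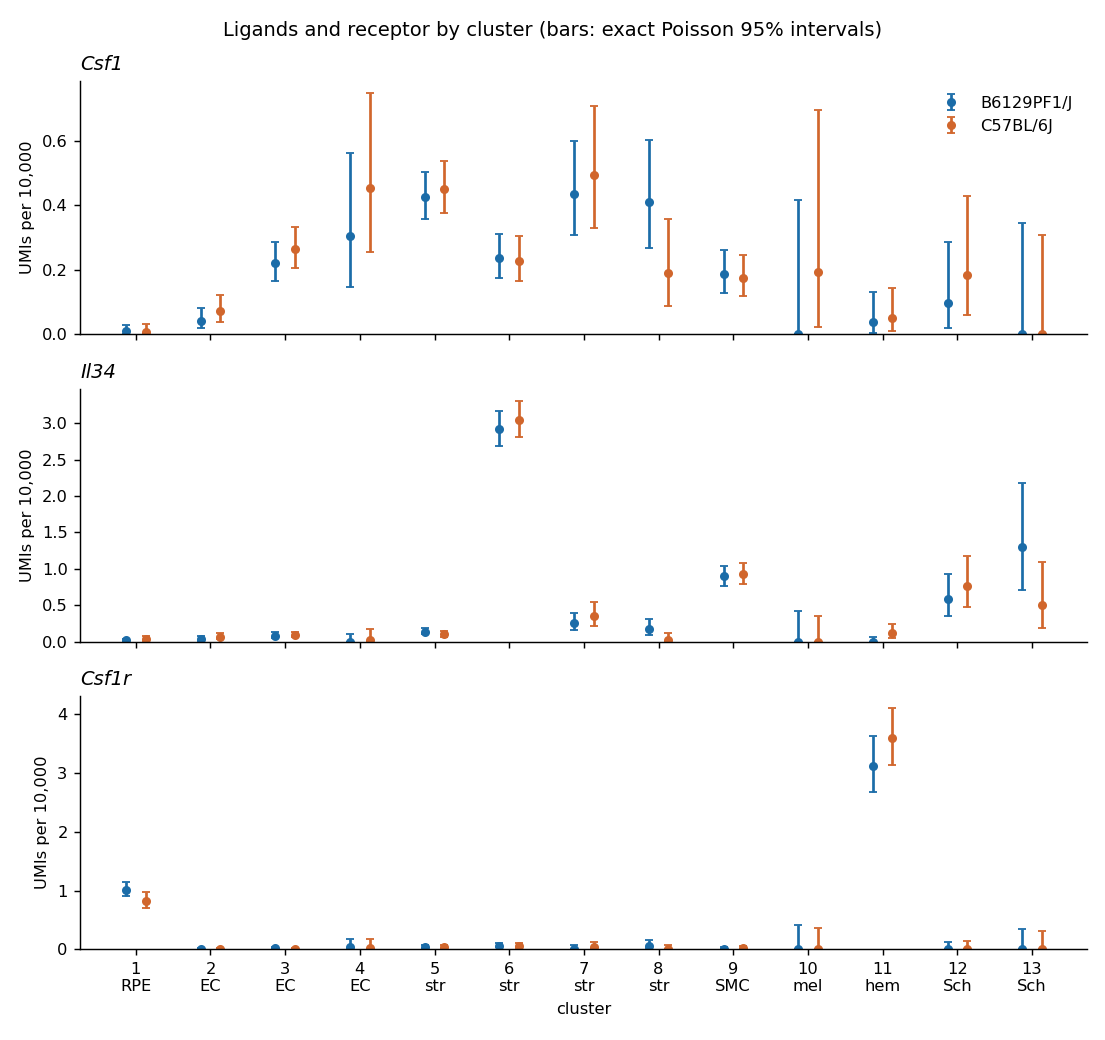
Levels of *Csf1*, *Il34* and *Csf1r* in the 13 clusters, in UMIs per 10,000 UMIs of the cluster, for the B6129PF1/J and C57BL/6J libraries, with exact Poisson 95% intervals as error bars. *Csf1* spreads over stromal and endothelial clusters, *Il34* peaks in stromal cluster 6 at 2.92 and 3.05, and *Csf1r* peaks in hematopoietic cluster 11 with the RPE second.

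The genes whose pattern over the 13 clusters most resembled each ligand were found by the Pearson correlation of log2(1 + level), taking the lower value of both libraries, over 9660 genes. The clusters share libraries and depth, so these values are descriptions. For *Csf1* the closest were *Ntn1* (0.872), *Adamts10* (0.864), *Scara3* (0.827), *Ltbp4* (0.824) and *Dkk2* (0.824). For *Il34* they were *Dmd* (0.864), which encodes dystrophin, then *Txnrd3* (0.833), *Fat1* (0.815), *Tusc5* (0.812) and *Cacna2d1* (0.812). The 5 genes nearest *Csf1* and the 5 nearest *Il34* had no member in common. IL-34 also binds other surface molecules. Of these, *Sdc1* (syndecan 1) was highest in cluster 6, the same cluster as *Il34*, at 2.09 and 1.92, and *Ptprz1* was highest in Schwann cluster 12, at 1.60 and 1.10.

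*Csf1r* transcripts were split between hematopoietic cells and the RPE. Its level in cluster 11 was 3.12 [2.67 to 3.63] in B6129PF1/J and 3.59 [3.13 to 4.10] in C57BL/6J, with the transcript in 56 of 106 cells (52.8%) and 84 of 127 (66.1%). The RPE had 1.02 [0.906 to 1.14] and 0.824 [0.695 to 0.970], with *Csf1r* in 170 of 407 cells (41.8%) and 112 of 374 (29.9%). In every other cluster the level was at most 0.0636 and 0.0579, the values of stromal cluster 6. RPE cells outnumbered hematopoietic cells in both libraries. The RPE held 305 of the 514 *Csf1r* UMIs in B6129PF1/J (59.3%) against 171 in hematopoietic cells (33.3%). In C57BL/6J the balance was the opposite, with 144 of 390 UMIs (36.9%) in the RPE and 218 (55.9%) in hematopoietic cells. Some of these shares moved when each cell was thinned to 1700 UMIs, as given further below.

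Most other macrophage transcripts were at far lower relative levels than *Csf1r* in the RPE. The *Csf1r* level of the RPE was 32.6% and 22.9% of that of cluster 11. The corresponding share was 0.429% and 0.928% for *Pf4*, 0.0448% and 0.0603% for *Tyrobp*, an adaptor of myeloid receptors, and 0.0213% and 0.0591% for the complement gene *C1qa*. *Ptprc* was at 0 UMIs in the RPE of both libraries, as was *Spi1*, the gene of the myeloid factor PU.1, whose level in cluster 11 was 3.29 and 4.02. Of the 10 pan-macrophage genes, 4 and 5 were at 0 in the RPE, and their summed level was 0.437 and 0.441 there against 57.1 and 71.2 in cluster 11. Most of that sum in the RPE was *Mertk*, the phagocytic receptor of the RPE itself, at 0.377 and 0.366.

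Single RPE cells were examined for leukocyte transcripts. All 170 and 112 *Csf1r*+ RPE cells had *Rpe65* and *Rlbp1*, both genes of the visual cycle, and none had a *Ptprc* UMI, where 0 of 170 and 0 of 112 cells allow a share of cells with a UMI of up to 1.76% and 2.68%, counting 3 cells as the limit. *Ptprc* itself was detected in 77 of the 106 and 84 of the 127 cells of cluster 11, so the limit does not cover cells in which it was missed. A *C1q* transcript was found in 3 of 170 *Csf1r*+ and 2 of 237 *Csf1r*- RPE cells of B6129PF1/J, and in 4 of 112 and 3 of 262 of C57BL/6J. Any of the 15 pan-macrophage or pan-leukocyte genes, which include *Mertk* and the broadly expressed *Cyba*, was found in 51.8% of *Csf1r*+ and 24.5% of *Csf1r*- RPE cells of B6129PF1/J, and in 42.0% and 27.5% of those of C57BL/6J. *Csf1r*+ RPE cells were more deeply sequenced, with median UMIs of 9199 against 3947 in B6129PF1/J and of 4539 against 3027 in C57BL/6J. Across 4 equal groups of RPE cells ordered by depth the share with *Csf1r* rose from 18.6% to 82.2% and from 14.9% to 52.7%. The level per 10,000 moved little, lying between 0.865 and 1.14 in B6129PF1/J and between 0.649 and 0.948 in C57BL/6J, with overlapping intervals of adjacent groups. The share of *Csf1r*+ RPE cells thus tracked depth, and the part of depth in the difference between libraries was not tested. *Pdgfrb*, the gene next to *Csf1r*, had 0.157 and 0.155 in the RPE, lower than *Csf1r* there.

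**Figure D2:**
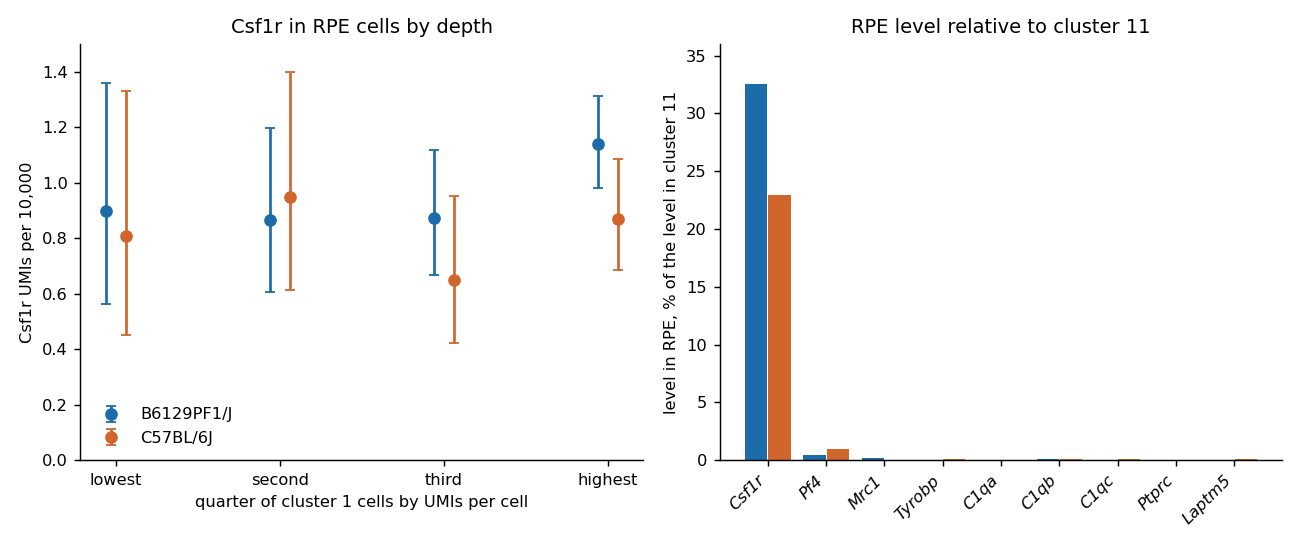
Left, *Csf1r* level in UMIs per 10,000 in 4 groups of RPE cells ordered by UMIs per cell, with exact Poisson 95% intervals. Right, the RPE level of macrophage genes as a percentage of their level in cluster 11, where *Csf1r* reached 32.6% in B6129PF1/J and 22.9% in C57BL/6J while *Pf4*, *Mrc1*, *Tyrobp*, the *C1q* genes, *Ptprc* and *Laptm5* stayed below 1%.

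Of 15 genes of CSF1R signaling, 9 were highest in cluster 11 in B6129PF1/J and 8 in C57BL/6J. They included *Tyrobp*, at 22.3 and 28.4, *Ptpn6*, a phosphatase, at 1.81 and 2.46, and *Lyn*, a SRC family kinase gene, at 1.77 and 1.93. The broadly used *Mapk3* was instead highest in endothelial cluster 4, at 4.12 and 3.90. The summed level of the 15 genes was 34.0 and 40.8 in cluster 11 and 2.19 in the RPE of each library. Among 6 myeloid transcription factors, 3 and 5 were highest in cluster 11. The share of all genes with at least 30 UMIs that were highest there was 7.03% and 8.13%. Both lists were chosen with earlier results of these data known, so nothing is read from these counts.

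All 8 receptor and resident macrophage genes were highest in cluster 11 in B6129PF1/J, and 7 in C57BL/6J, with *Lyve1* the exception. Among all genes with at least 30 UMIs, 7.03% and 8.13% were highest in that cluster, but since the genes were chosen by these very values nothing is read from the contrast. *Mrc1*, the gene of the mannose receptor CD206 (chr2:14229392-14332057, plus strand), had 1.68 [1.36 to 2.06] and 2.00 [1.66 to 2.38] in cluster 11, from 27 and 40 cells. With each cell thinned to 1700 UMIs these levels were 2.61 and 2.92. This cluster held 94.8% and 96.0% of its UMIs. *Pf4*, which encodes platelet factor 4, a chemokine that tissue macrophages also make (chr5:90772435-90773383, plus strand), had 4.66 [4.11 to 5.27] and 8.01 [7.32 to 8.76], from 27 and 41 cells. It was the most abundant member in cluster 11 of both libraries, and the intervals of its levels in the libraries did not overlap. Platelet genes, of which 3 of a list of 4 were in the table, summed to 0 and 0.0330 in cluster 11. *Cd163*, the hemoglobin scavenger receptor gene (chr6:124304656-124330527, plus strand), was sparser, at 0.530 [0.355 to 0.761] and 0.594 [0.416 to 0.822], in 12 and 17 cells.

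Promoter sequence is given for the members that hold a match to the core of the PU.1 motif, since PU.1 drives many macrophage genes. The RefSeq promoter table (GRCm38.p6) had entries for *Csf1*, *Mrc1*, *Cd163*, *Pf4*, *Cd72* and *Folr2*, 6 of the 10 genes. *Il34*, *Csf1r*, *Gpr34* and *Lyve1* had none. The 250 bases before each start were searched on both strands for GAGGAA and for the longer GAGGAAGT that contains it. The core was found upstream of *Mrc1*, *Pf4* and *Cd72*, and the longer motif upstream of *Pf4* and *Cd72*. Of 32851 promoter windows of the same length, 23.3% held the core and 2.44% the longer motif. Capitals mark GAGGAA or its reverse complement TTCCTC, and a match describes the letters only. The windows are *Mrc1* chr2:14229164-14229413 (plus strand), *Pf4* chr5:90772185-90772434 (plus strand) and *Cd72* chr4:43454627-43454876 (minus strand), each written 5' to 3' toward the gene.
Mrc1: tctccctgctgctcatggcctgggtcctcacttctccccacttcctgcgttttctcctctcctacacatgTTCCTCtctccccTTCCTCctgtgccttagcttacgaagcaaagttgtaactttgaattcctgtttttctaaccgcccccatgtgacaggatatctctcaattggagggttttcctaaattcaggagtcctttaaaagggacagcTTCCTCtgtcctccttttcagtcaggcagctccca
Pf4: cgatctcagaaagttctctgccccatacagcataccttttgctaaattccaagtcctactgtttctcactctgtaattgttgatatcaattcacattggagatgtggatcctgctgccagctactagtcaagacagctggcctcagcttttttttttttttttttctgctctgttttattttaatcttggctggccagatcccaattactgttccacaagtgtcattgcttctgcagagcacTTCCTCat
Cd72: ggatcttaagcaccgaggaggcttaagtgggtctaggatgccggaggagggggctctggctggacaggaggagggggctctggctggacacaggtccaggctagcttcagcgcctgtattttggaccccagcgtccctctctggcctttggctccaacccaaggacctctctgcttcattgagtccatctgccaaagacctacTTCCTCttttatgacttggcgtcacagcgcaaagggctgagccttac
*Mrc1* held 3 core matches, and *Pf4* and *Cd72* held 1 each, all on the strand opposite to the gene.

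*Gpr34*, *Cd72* and *Lyve1* also had transcripts outside hematopoietic cells. *Gpr34* encodes a lysophosphatidylserine receptor (chrX:13632089-13640858, plus strand) and had 0.384 [0.237 to 0.587] and 0.594 [0.416 to 0.822] in cluster 11. Smooth muscle cells followed at 0.163 [0.109 to 0.235] and 0.0893 [0.0510 to 0.145]. With each cell thinned to 1700 UMIs the level in cluster 11 was 0.167 and 0.834, beside 0.126 and 0.114 in smooth muscle cells. These thinned levels come from a single random draw of few UMIs and have no interval. In cluster 11 they moved in opposite directions in the libraries, so nothing is read from them on depth. In the full counts the smooth muscle cells, which outnumbered hematopoietic cells, held 56.9% and 30.2% of all *Gpr34* UMIs. The 25 and 15 smooth muscle cells with *Gpr34* all had *Acta2*, and none had *Csf1r*, *Mrc1*, *Pf4*, *Ptprc* or *C1qa*. *Cd72*, a lectin-like coreceptor of B cells that macrophages also carry (chr4:43446462-43454628, minus strand), had 0.713 [0.507 to 0.974] and 1.04 [0.798 to 1.33] in cluster 11. Stromal cluster 5 added 20 and 14 *Cd72* UMIs at 0.0630 and 0.0506. All stromal cells together held 34 of the 81 *Cd72* UMIs (42.0%) and 21 of the 92 (22.8%), beside 39 and 63 in cluster 11.

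*Folr2* and *Lyve1* rested on few cells. *Folr2*, a folate receptor gene (chr7:101839988-101857194, minus strand), had 32 UMIs in 5 cells of B6129PF1/J, all in cluster 11, and 39 UMIs in 5 cells of cluster 11 in C57BL/6J. The levels were 0.585 [0.400 to 0.825] and 0.643 [0.457 to 0.879]. *Lyve1*, which encodes a hyaluronan receptor of lymphatic endothelium and of perivascular macrophages (chr7:110850607-110863239, minus strand), had 0.585 [0.400 to 0.825] in cluster 11 of B6129PF1/J, from 6 cells, and 0.0660 [0.0180 to 0.169] in C57BL/6J, from 4 UMIs of 1 cell. In smooth muscle cells it had 0.192 [0.133 to 0.268] and 0.151 [0.0993 to 0.219]. The 30 and 26 smooth muscle cells with *Lyve1* all had *Acta2*, and none had *Prox1*, the lymphatic endothelial factor, *Csf1r* or *Ptprc*. Stromal cluster 6 had 0.113 and 0.0947. With 6 and 1 cells, the difference of *Lyve1* between the libraries cannot be told apart from the sampling of cells.

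**Figure D3:**
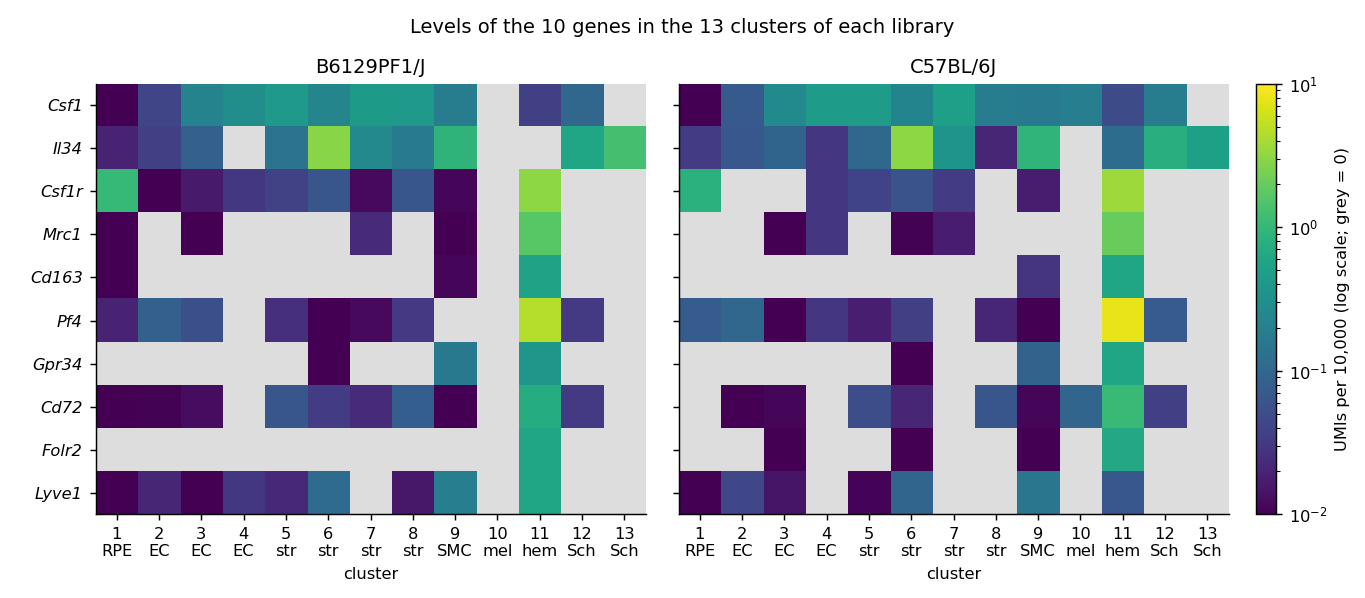
Levels of the 10 genes in UMIs per 10,000 by cluster and library, on a logarithmic color scale with grey for 0. The receptor and the resident macrophage genes are highest in cluster 11, except *Lyve1* in C57BL/6J, with *Pf4* at 4.66 and 8.01, whereas the ligand genes lie in stromal, endothelial and smooth muscle clusters.

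Within cluster 11 the resident genes were often found in the same cells. Of *Mrc1*+ cells, 24 of 27 (88.9%) in B6129PF1/J and 37 of 40 (92.5%) in C57BL/6J had *Csf1r*, compared with 40.5% and 54.0% of *Mrc1*- cells. *Pf4* was detected in 20 of 27 *Mrc1*+ cells (74.1%) and 33 of 40 (82.5%), compared with 8.86% and 9.20% of *Mrc1*- cells. The reverse was less complete, as *Mrc1* was found in 24 of 56 *Csf1r*+ cells (42.9%) and in 37 of 84 (44.0%). Thus *Csf1r* marked a wider set of cells than *Mrc1*. *Pf4*+ cells had *Csf1r* in 27 of 27 and 39 of 41 cases.

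*Cd163* and *Folr2* were found in fewer cells, most of them *Mrc1*+. *Mrc1* was detected in 9 of 12 and 14 of 17 *Cd163*+ cells. All 5 *Folr2*+ cells of each library had *Csf1r* and *Pf4*, 4 and 5 of them had *Mrc1*, and 3 and 5 had *Cd163*. *Cd163* was found in 9 of 27 and 14 of 40 *Mrc1*+ cells, and in 5 of 22 (22.7%) and 3 of 26 (11.5%) *Cd72*+ cells. Among *Cd72*- cells its share was 8.33% and 13.9%. Of the 8 receptor and resident genes, none was detected in 39 and 30 cells of cluster 11, 1 gene in 24 and 40 cells, and 4 or more in 18 (17.0%) and 26 (20.5%). A gene missed in a cell at these depths may still be expressed, so these counts of genes per cell are lower limits.

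Clustering of the 233 cells without the 10 members gave 11 subclusters, each with cells of both libraries. Subclusters 1 (42 cells) and 4 (27 cells) were macrophage-like, each with 9 of the 10 pan-macrophage genes detected in at least 25% of its cells. They were led by different genes, the inflammatory cytokines *Cxcl2*, *Ccl3* and *Tnf* in subcluster 1 and *Gpnmb*, *Ctsd* and *Trem2*, genes of lysosomes and lipid handling, in subcluster 4. Subcluster 3 was dendritic-like (28 cells, led by *Xcr1*), subcluster 7 monocyte-like (19 cells, with *Ly6c2* and *Chil3*), subcluster 6 T and NK-like (22 cells) and subcluster 10 B-like (7 cells). Subclusters 2 and 5 stayed unnamed, and subclusters 8, 9 and 11 were led by stromal, endothelial and pigment cell genes. These last 3 also had 8, 9 and 7 of the 10 pan-macrophage genes in at least 25% of cells, and they are not counted among the macrophage-like cells.

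Subclusters 1 and 4 made up 69 of the 233 cells (29.6%) and held 85.4% of the *Mrc1*, 90.8% of the *Pf4*, 83.1% of the *Cd163* and 100% of the *Folr2* UMIs of cluster 11, but only 55.8% of the *Csf1r* UMIs. *Csf1r* was 6.94 and 8.89 in these subclusters. In the unnamed subcluster 5, led by *Pglyrp1*, *Ace* and *Treml4*, it was 6.16 [4.61 to 8.06], found in 21 of 27 cells, while the 7 resident genes were all at 0 UMIs there, below a limit of 3 counts that corresponds to 0.349. The monocyte-like subcluster 7 had a *Csf1r* level of 3.23 with 3 *Mrc1* UMIs and no UMI of the other resident genes. In the dendritic-like subcluster 3 only 2 *Csf1r* UMIs were counted.

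The macrophage-like subclusters differed from each other in the resident genes. This division depends on the resolution: at the lower one a single macrophage-like subcluster of 70 cells took their place, and at the higher one 7 cells led by *Ccl24* and *Fcna* split off with 84.5% of the *Folr2* and 91.7% of the *Lyve1* UMIs of cluster 11, leaving a *Folr2* level of 0.773 and a *Cd163* level of 1.86 in the subcluster led by *Gpnmb*. Subcluster 4 had higher levels of *Mrc1*, at 9.28 [7.69 to 11.1] against 4.24 [3.26 to 5.43] in subcluster 1, of *Pf4*, at 31.1 against 18.4, and of *Cd163*, at 3.51 [2.56 to 4.70] against 0.606 [0.277 to 1.15]. *Folr2* was nearly confined to subcluster 4, with 70 of its 71 UMIs there, and its level was 5.46 against 0.0673. *Lyve1* had 33 UMIs in 4 cells of subcluster 4 and none in subcluster 1. *Cd72* ran the other way, at 4.38 [3.38 to 5.58] in subcluster 1 and 0.390 [0.127 to 0.910] in subcluster 4, and this order held in each library. B6129PF1/J had 17 UMIs over all 17 cells of subcluster 1 against 4 over all 10 cells of subcluster 4. C57BL/6J had 48 over all 25 cells against 1 over all 17. Not every cell had a UMI, as *Cd72* was detected in 10 of 27 and 15 of 42 cells of these subclusters together. *Gpr34* was 1.35 and 1.56, with overlapping intervals. *Cd72* was also found in the B-like subcluster 10, in 3 of 7 cells.

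**Figure D4:**
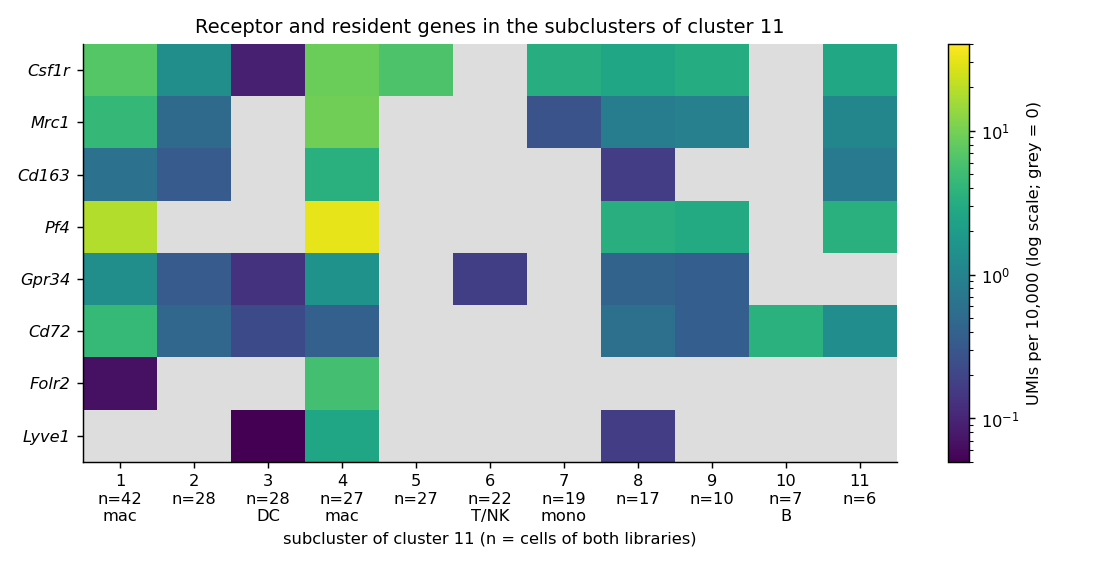
Levels of the receptor and resident macrophage genes in subclusters of the cells of cluster 11, which were clustered without these genes, in UMIs per 10,000 on a logarithmic color scale with grey for 0. *Mrc1*, *Pf4*, *Cd163* and *Folr2* peak in subcluster 4, *Cd72* peaks in subcluster 1, and *Csf1r* extends to subcluster 5.

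The macrophage-like cells were 27 of 106 (25.5%) in B6129PF1/J and 42 of 127 (33.1%) in C57BL/6J. Within them the libraries had overlapping intervals for *Csf1r*, 8.40 [6.82 to 10.2] and 7.44 [6.16 to 8.90], *Mrc1*, 6.85 and 6.37, and *Cd163*, 1.97 and 1.94. *Pf4* remained higher in C57BL/6J, at 28.3 [25.8 to 31.0] against 18.9 [16.4 to 21.5]. *Lyve1* was at 2.48 [1.66 to 3.57] in B6129PF1/J, from 29 UMIs in 3 cells, and rested on 4 UMIs of 1 cell in C57BL/6J. *Cd72* was at 1.80 [1.11 to 2.75] and 3.06 [2.26 to 4.05], with overlapping intervals. The 8 mast cell genes summed to 0.256 in cluster 11 of B6129PF1/J and 28.4 in that of C57BL/6J. The macrophage-like cells were not free of them, as the mast cell gene *Cma1* was found in 2 of the 42 cells of subcluster 1, where it reached a level of 29.4. Strain and library cannot be told apart.

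Over the single cells of cluster 11, the genes closest to *Mrc1* by the Pearson correlation of log-normalized counts, among 4287 genes, were *Stab1* (0.677), another scavenger receptor gene, the complement genes *C1qc* (0.671), *C1qa* (0.671) and *C1qb* (0.650), and *Sepp1* (0.596), which encodes selenoprotein P. These are the lower values of both libraries, over 106 and 127 cells that share depth and library.

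Deletion of endothelial *Ihh* was accompanied by lower averages of several resident macrophage genes in whole RPE/choroid, with *Csf1r* near its control level. Values are the authors' averages of 3 libraries in FPKM, fragments per kilobase of transcript scaled to library size, with no spread between libraries, so no test could be made. The targeted *Ihh* was at 1.53 FPKM in *Ihh*+/+ and 0.454 in *Ihh* iΔEC/iΔEC tissue, and *Gli1*, its transcriptional readout, at 9.40 and 3.15. In such bulk samples fewer cells of a type and less RNA per cell cannot be told apart.

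*Gpr34* averaged 1.52 FPKM in *Ihh*+/+ and 0.594 in *Ihh* iΔEC/iΔEC tissue, a ratio of 0.391. *Pf4* averaged 5.71 and 3.69 (ratio 0.646), *Mrc1* 3.35 and 2.23 (0.668) and *Cd72* 5.58 and 3.81 (0.683). With a fold of 1.5 and at least 1 FPKM in the higher group as the rule, 2 of the 7 members that reached 1 FPKM were lower, *Gpr34* and *Pf4*, against 2.53% of the 11411 genes at that level, and none was higher, against 2.17%. *Mrc1* and *Cd72* lay just outside the fold. Nothing is read from this count or from the median that follows, because the genes were chosen with these averages known. The median ratio of the 7 members was 0.683, beside 0.975 over all genes at that level. The other 3 members stayed below 1 FPKM in both groups. *Cd163* averaged 0.418 and 0.195, *Folr2* 0.911 and 0.793, and *Lyve1* 0.284 and 0.291.

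Receptor and ligands differed less. *Csf1r* averaged 48.0 FPKM in *Ihh*+/+ and 52.5 in *Ihh* iΔEC/iΔEC tissue (ratio 1.09), *Csf1* 7.28 and 5.78 (0.793) and *Il34* 3.75 and 3.44 (0.918). *Csf1r* was thus by far the most abundant of the 10 genes in the tissue per length, and in the single cell libraries the RPE held 59.3% and 36.9% of its UMIs. The RPE markers *Rpe65* and *Rlbp1* had ratios of 1.34 and 1.16 in the same comparison, and their part in the *Csf1r* value was not tested. Of the 5 genes nearest *Csf1* in pattern, *Ntn1* (0.647) and *Dkk2* (0.656) passed the fold downward. The stromal markers *Col1a1* and *Pdgfra* had ratios of 0.577 and 0.651, and the part of stromal cells in the *Csf1* and *Cd72* values was not tested.

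**Figure D5:**
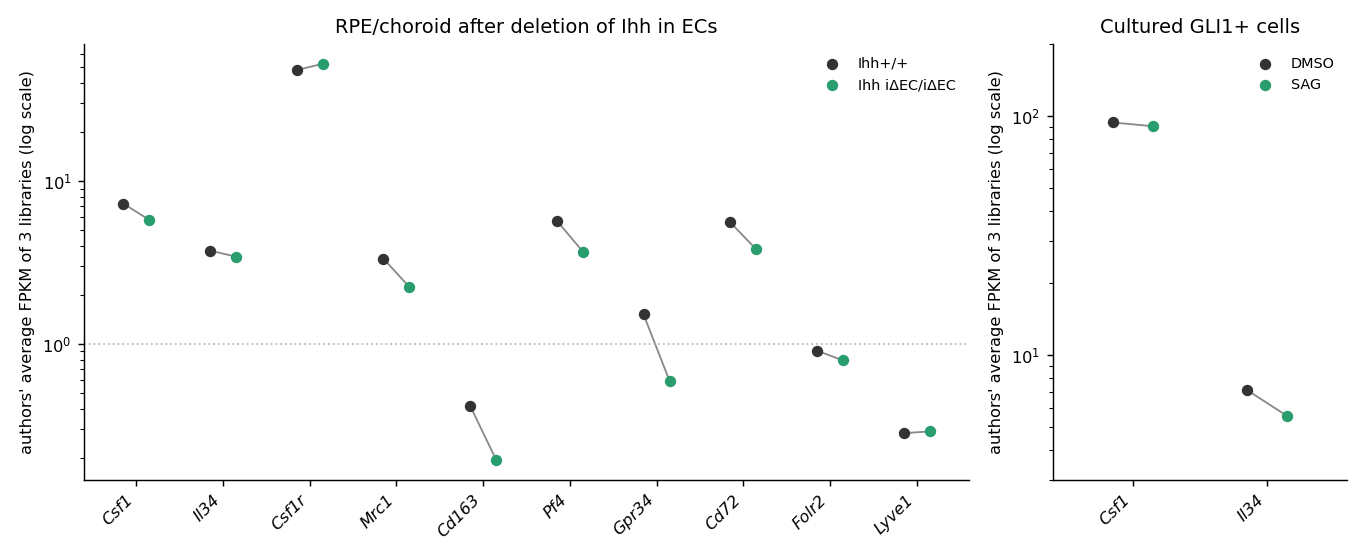
Average FPKM on a logarithmic axis, each point the authors' average of 3 libraries without a spread, for the 10 genes in *Ihh*+/+ and *Ihh* iΔEC/iΔEC RPE/choroid (left) and for the ligand genes in GLI1+ cells with DMSO or SAG (right). *Gpr34*, *Cd163*, *Pf4*, *Mrc1* and *Cd72* lie lower in *Ihh* iΔEC/iΔEC tissue, whereas *Csf1r* lies near its control value, and the dotted line marks 1 FPKM.

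General leukocyte and macrophage genes had averages nearer to the control than *Gpr34*, *Pf4*, *Mrc1* and *Cd72*. Because the members were chosen with these averages known, nothing is read from this contrast. All 9 of the pan-macrophage genes listed in the table stayed within the fold, from 0.803 for *Aif1* to 1.13 for *Mertk* with a median of 0.893, and so did the 5 pan-leukocyte genes, from 0.796 for *Coro1a* to 1.17 for *Cd52*. *Mertk* had only 4 of its 515 and 14 of its 402 single cell UMIs in cluster 11. *Cyba*, on the pan-leukocyte list, had 629 of 4283 and 905 of 4545 there. The 15 CSF1R signaling genes ranged from 0.667 for *Pik3cd* to 1.11 for *Tyrobp*, with a median of 0.908 and none past the fold. The 6 myeloid transcription factors had a median of 0.904, and none passed it.

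Other lists held genes that did pass. *Stab1*, the gene closest to *Mrc1* in single cells, averaged 9.97 and 6.59 FPKM (0.660), but only 68 of its 750 and 96 of its 580 UMIs were in cluster 11. *Cbr2*, which was among the leading genes of subcluster 4, averaged 3.39 and 10.1 (2.99). Only 33 of its 62 and 30 of its 57 UMIs were in cluster 11. It was also above 1 FPKM in the GLI1+ culture, with DMSO and with SAG. The cell type behind its higher tissue average was not tested. Of the microglia genes at 1 FPKM or more, *Cx3cr1* (0.647) and *Tmem119* (0.651) were lower, but in the single cell libraries *Tmem119* was highest in stromal cluster 8, with 6 of 496 and 7 of 389 UMIs in cluster 11. Of the monocyte genes *Ccr2* was lower (0.613), and of the dendritic cell genes the integrin gene *Itgax* was higher, at 4.08 and 6.32 (1.55). Among other markers *Pmel*, a melanocyte gene, was lower (0.544), and *Reln*, on the lymphatic endothelial list, was higher, at 0.106 and 1.70. In the single cell libraries *Reln* was highest in Schwann cluster 13, at 2.61 and 1.75. Mast cell genes were lower by more, with ratios of 0.287 for *Cma1*, 0.303 for *Mcpt4* and 0.377 for *Tpsb2*. Among other hematopoietic growth factors *Kitl*, the ligand of KIT, averaged 15.9 and 9.42 (0.592). The part of a changed cell mix in the values of the 10 genes was not tested.

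In culture the stromal ligand genes were expressed and had similar averages with DMSO and SAG. The response of the cells was seen in *Gli1*, at 0.0280 FPKM with DMSO and 3.65 with SAG, and in *Ptch1*, at 1.12 and 10.1. *Csf1* averaged 93.8 FPKM with DMSO and 90.5 with SAG (ratio 0.964). *Il34* averaged 7.11 and 5.54 (ratio 0.779). Neither passed the fold of 1.5, against 2.45% of 10325 genes lower and 1.38% higher. *Csf1* was therefore more abundant than *Il34* in these cultured cells per length. The IL-34 binding *Sdc1* averaged 38.3 and 38.7.

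The 8 receptor and resident macrophage genes were nearly absent from the culture. *Csf1r* averaged 0.0610 and 0.0757 FPKM, *Mrc1* 0.0230 and 0.0323 and *Pf4* 0.0580 and 0.0873, and *Cd163* and *Gpr34* were listed at 0 with DMSO. The highest of the 8 receptor and resident genes was *Cd72*, at 0.483 and 0.429. *Ptprc* was at 0.00233 and 0.00333. Among genes of the other lists, *Reln*, with a ratio of 2.27, was higher past the fold with SAG, and *Plac8*, at 5.26 and 1.14, was lower.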

How the data were processed

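Single cell libraries had been made with droplet 3' chemistry, and the deposited counts were raw UMI counts per gene and cell that the authors had obtained with Cell Ranger on mm10 and filtered in Seurat 2.1. Cluster numbers came from the deposited annotation. For bulk RNAseq the authors had aligned reads with STAR 2.4.0f1 to mm10 and deposited Cufflinks 2.0.2 FPKM values as averages of 3 libraries per group. Columns of the authors' own fold changes and adjusted p-values were not used, and the table of sorted endothelial cells held none of the 10 genes.

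Counts were summed by cluster and library and given per 10000 UMIs. Intervals were exact, Poisson for levels and Clopper-Pearson for shares, at 95%, and cover counting error only. The limit of a count of 0 was set at 3 counts. Cells of cluster 11 were clustered without the 10 genes with scanpy 1.11.5 (1000 variable genes, 12 principal components, 12 neighbours, Leiden resolution 0.8), and a subcluster was named from its markers only. Doublets had not been called. Cells with both Xist and Ddx3y, 35 and 33 in number, were left out in an alternative. Bulk averages were compared as plain ratios, with a fold of 1.5 and at least 1 FPKM in the higher group. The scripts, in Python 3.11.15, were tested on simulated data. Gene positions came from GENCODE on GRCm38.

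The 10 genes and all lists were chosen with earlier results of these data known. The genes named were the 10 members, the 5 genes most like Csf1, Il34 and Mrc1, and from each list those past the fold or, failing that, up to 3 with the highest level. Leading genes of subclusters and the extremes of list ranges were named after their values were seen. Some results are not reported here.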

Additional observations from a re-analysis of the deposited data

How the results depend on the processing

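Of 120 levels recomputed under other settings, 15 moved beyond the counting interval, of 68 shares and counts 13 moved, and of 36 ratios 4 moved. None changed direction. The levels in cluster 11 that moved by over 1.5 times were Gpr34 in B6129PF1/J, at 0.167, and Mrc1 in B6129PF1/J, at 2.61, both after thinning each cell to 1700 UMIs. Thinning each cell to 1700 UMIs raised the hematopoietic share of Csf1r UMIs to 43.2% in B6129PF1/J and 61.3% in C57BL/6J and lowered the RPE share in B6129PF1/J to 45.3%. It moved the stromal share of Csf1 to 74.1% and 65.7%, the endothelial share of Csf1 to 14.4% and 22.1%, and the stromal share of Il34 in C57BL/6J to 75.7%. Among Mrc1+ cells of C57BL/6J it lowered the share with Csf1r to 67.9% and with Pf4 to 64.3%. With a looser fold, 5 members were lower after Ihh deletion (Gpr34, Pf4, Mrc1, Cd72 and Csf1, beside 8.53% of all genes), and with a fold of 2 only Gpr34, so 1 (0.745%). With the looser fold, 1 ligand, Il34, was lower after SAG, beside 5.45% of all genes. The cause was not tested, other than fewer UMIs per cell by construction. No paired analysis was possible because the bulk tables hold only group averages. Leaving out single libraries was not run for the same reason.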

Other observations

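At a higher resolution of the subclustering (1.4), 7 cells of cluster 11 formed a subcluster of their own, again without use of the 10 genes. In these cells the level of Folr2 was 19.8 UMIs per 10,000, of Lyve1 10.9, of Cd163 9.22, of Mrc1 14.8 and of Pf4 55.4. Cd72 was at 0.659 there.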
